A study of Mus musculus with 10 samples.

Results

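The genes of 8 proteins that place, copy and remove 5-methylcytosine in DNA were examined in the mouse colorectum: Dnmt1, Uhrf1, Dnmt3a, Dnmt3b, Tet1, Tet2, Tet3 and Tdg. They were picked by symbol, as a class often described as targets of miR-29, and all 8 were among the 23284 features listed for each library. Gene expression had been measured by stranded mRNA sequencing in 10 libraries, 2 for each of 5 groups of BALB/c mice labelled as 7 weeks old. The miR-29a day 4 and miR-29b day 4 groups received 2% dextran sodium sulfate (DSS), a polysaccharide that provokes colitis, and tail vein injections of the miRNA on days 1, 2 and 3, carried by sCA. The NC-miR day 4 and NC-miR day 2 groups received the same DSS and carrier with NC-miR, the control miRNA of the study, and differ from each other in the day on which the tissue was taken. For NC-miR day 2 the labels list injections up to day 3 as well, after its tissue was taken. Normal mice had neither DSS nor injections and were sampled on day 0, so a difference from normal cannot be assigned to DSS, the injections or the day, which cannot be told apart. The labels do not say that the 2 libraries of a group came from separate mice, so the p-values measure the spread between these libraries, which may be technical.

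Cytosine methylation in mammals is written by Dnmt3a and Dnmt3b on unmethylated DNA and copied after replication by Dnmt1, which Uhrf1 brings to hemimethylated sites. Tet1, Tet2 and Tet3 oxidise the methyl group, and Tdg, a DNA glycosylase, cuts out the most oxidised bases so that base excision repair can restore an unmodified cytosine. In the intestine Dnmt1 and Uhrf1 are known for their place in the dividing cells of the crypt. The miR-29 family binds messages through its seed, bases 2 to 8 of the mature strand, and human DNMT3A and DNMT3B are among its known targets.

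The sequences below show what the injected miRNAs share and where their seed could pair with the messages. The mature strands are those of RefSeq (GRCm38.p6), with the seed in capitals. Mature miR-29a lies at chr6:31062673-31062694 on the minus strand, and the copy of miR-29b shown lies at chr1:195037091-195037113 on the plus strand.
mmu-miR-29a-3p: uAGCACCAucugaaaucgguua
mmu-miR-29b-3p: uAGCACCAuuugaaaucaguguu
Both had the seed AGCACCA. Outside it, going from miR-29a to miR-29b and counting from 1 at the 5′ end, the differences were C10U, G18A, U21G and A22U, and miR-29b is 1 base longer (23 against 22 bases).

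The 7 bases TGGTGCT, the reverse complement of the seed, were counted on the sense strand of the longest annotated 3′ untranslated region (UTR) of each gene (GENCODE M21, GRCm38, the assembly also called mm10). They occurred at least once in 6 of the 8 genes, with 29 matches in all. Tet3 held 8 matches in a UTR of 5669 bases, Tet1 held 7 in 7962 bases, and Dnmt3a (6696 bases) and Tet2 (3058 bases) held 5 each. Tdg held 3 in 2079 bases and Dnmt3b held 1 in 1331 bases. Dnmt1 (312 bases) and Uhrf1 (984 bases) held none. Of 20993 genes with a 3′ UTR, 13.1% held at least 1 match, 0.4% held 3 or more, and 0.05% (11 genes) held 5 or more. Longer UTRs have room for more, and among the 5372 genes with at least 2000 bases the shares were 30.32%, 1.38% and 0.2%. A match followed by adenosine, the stronger form of a seed site, was present in 5 of the 8 genes. The first such match of each gene, or the first match of Dnmt3b, which has none of that form, is printed with 15 bases before it and 1 after, and the capitals mark the match.
Dnmt3a, chr12:3911390-3911412, plus strand: cccaggggaggtagcTGGTGCTa
Dnmt3b, chr2:153686612-153686634, plus strand: tagagtagcccggcaTGGTGCTc
Tet1, chr10:62806042-62806064, minus strand: gtttcttgaaggagaTGGTGCTa
Tet2, chr3:133466173-133466195, minus strand: ggtgttaacattaaaTGGTGCTa
Tet3, chr6:83364336-83364358, minus strand: aaatagtctaataaaTGGTGCTa
Tdg, chr10:82649662-82649684, plus strand: ctcatgcattttccaTGGTGCTa
These are matches of letters, and binding was not measured.

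**Figure D1:**
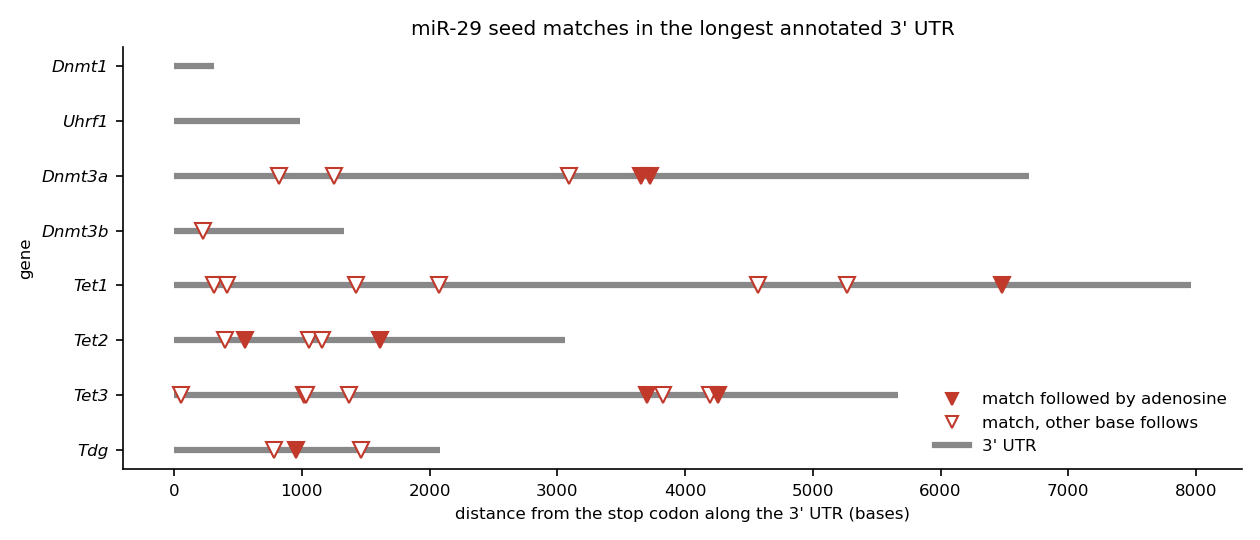
Matches to the miR-29 seed (triangles) along the longest annotated 3′ UTR of each gene (grey line), with the distance from the stop codon in bases on the horizontal axis. Filled triangles are matches followed by adenosine, and the UTRs of Dnmt1 (312 bases) and Uhrf1 (984 bases) carry no triangle.

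The values in the files are on a log2 scale relative to a separate baseline for every gene, so they can be compared between libraries but not between genes, and they give no level. For many features, at least 2 libraries shared the feature's own lowest value once a constant of each library was subtracted. This was read as a floor to which low values had been raised, and its value differs between features. In each library, 10344 to 10604 of the 23284 features lay at their floor. Read counts were not part of the files used, so depth is unknown. Markers of columnar epithelium (Epcam, Cdh1, Krt8 and others) lay above the floor in all 10 libraries for 8 of 8 genes. Their mean relative to normal was 0.41 and 0.61 with miR-29b, against -0.12 to 0.33 in the other 8 libraries. With miR-29b, 8 of 8 were above 0 against normal (median 0.55) and 7 of 8 against NC-miR on day 4 (median 0.43), with 0 called by limma and 5 and 3 at an unadjusted p under 0.05, beside 15.3% and 12.5% of all features. Above 0 were 45.3% and 53.0% of all features. Against normal, 8 of 8 were also above 0 with miR-29a (median 0.11), beside 46.1% of all features. With NC-miR it was 7 of 8 on day 4 (median 0.12) and 4 of 8 on day 2 (median -0.02), beside 44.6% and 41.2%. NC-miR day 4 replicate 1 stood apart in its markers of squamous epithelium, which averaged 4.85 above normal on the log2 scale, against -0.24 to 0.73 in the other 9 libraries. Of the 10 squamous markers, 4 were tested, and Krt4 and Trp63 lay at the floor in every library. Smooth muscle markers (8 of 8 tested) were lowest in NC-miR day 4 replicate 2, at -0.37 against -0.14 to 0.25 elsewhere. B cell markers (8 of 9 tested) averaged -0.78 to -2.30 in the 8 DSS libraries and -0.05 and 0.05 in the normal libraries. Against normal, 8 of 8 had an unadjusted p under 0.05 with miR-29b, NC-miR on day 4 and NC-miR on day 2, and 6 with miR-29a. The shares of all features were 15.3%, 15.2%, 15.2% and 11%. With miR-29b, 1 of them was called (limma adjusted p = 0.0486), beside 0.49% of all features, and 0 in the other 3 comparisons. Adipocyte markers (5 of 6 tested) averaged 1.4 and 0.07 with miR-29a, 0.09 and 1.17 with miR-29b, 0.88 and 0.34 with NC-miR on day 4, 1.36 and 0.93 with NC-miR on day 2, and -0.56 and 0.56 in normal mice. In whole tissue, fewer cells of a type and less RNA per cell cannot be told apart. The part of these markers in the values that follow was not tested.

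Which members could be measured at all came first. Tet1 (chromosome 10, 62804570 to 62908996) was at the floor in all 10 libraries. Dnmt3b (chromosome 2, 153649450 to 153687730), a de novo methyltransferase, was at the floor in 9 and lay above it only in normal replicate 2, by 0.23 on the log2 scale or 1.17-fold. Neither gene was tested, and a fall below the floor would not have been visible in either. Tdg (chromosome 10, 82629828 to 82650799) was at the floor in 4 libraries: both miR-29a day 4 libraries, NC-miR day 4 replicate 1 and NC-miR day 2 replicate 2. The other 5 genes, Dnmt1, Uhrf1, Dnmt3a, Tet2 and Tet3, were above the floor in all 10. Thus 6 of the 8 genes were tested, among 13051 features for which some group had neither library at the floor. Among those features, genes near the floor passed through the groups in which they were high, and Tdg passed through miR-29b day 4 and normal.

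**Figure D2:**
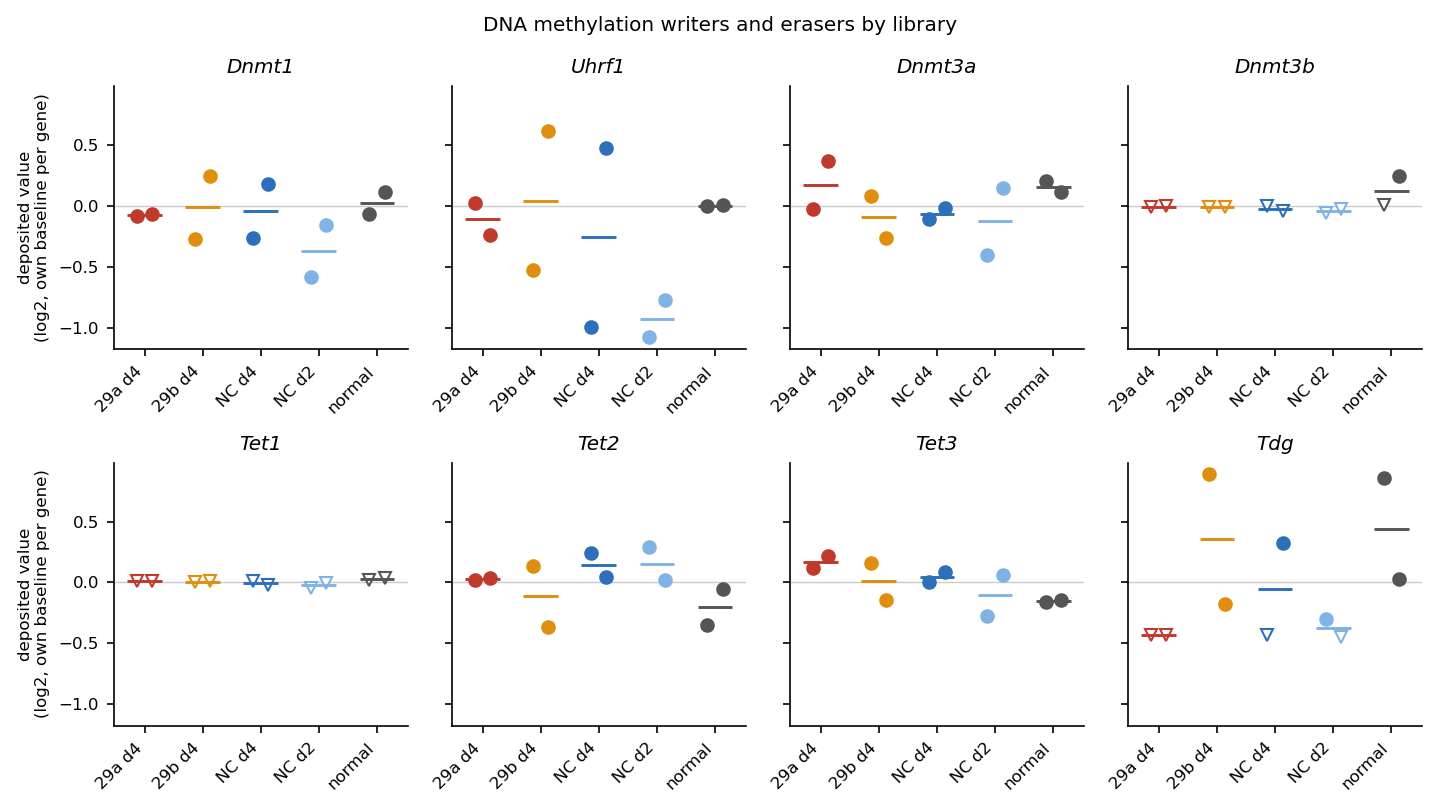
Deposited log2 values of the 8 genes (vertical axis, each gene on its own baseline) in the 2 libraries of each group, with replicate 1 left of replicate 2 and a line at the group mean. Open triangles are values at the floor: all 10 of Tet1, 9 of Dnmt3b and 4 of Tdg. The small offsets among the triangles of a gene are constants of the libraries and not expression.

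Of the maintenance pair, Uhrf1 had the larger pooled spread within groups, carried by miR-29b and by NC-miR on day 4. Dnmt1 (chromosome 9, 20907209 to 20959888), the maintenance methyltransferase, had values of -0.09 and -0.07 with miR-29a, -0.27 and 0.25 with miR-29b, -0.27 and 0.18 with NC-miR on day 4, -0.59 and -0.16 with NC-miR on day 2, and -0.07 and 0.11 in normal mice. The lowest library was from NC-miR day 2, and the groups overlapped except that both NC-miR day 2 libraries lay under both miR-29a libraries, which held for 23.5% of all features, and under both normal libraries, which held for 30.5%. Uhrf1 (chromosome 17, 56303321 to 56323486), which reads hemimethylated DNA for Dnmt1, had values of 0.03 and -0.24 with miR-29a, -0.53 and 0.61 with miR-29b, -0.998 and 0.48 with NC-miR on day 4, -1.08 and -0.78 with NC-miR on day 2, and -0.003 and 0.005 in normal mice. Replicates of miR-29b and of NC-miR on day 4 were more than 1 log2 unit apart, and the order of the group means (miR-29b, normal, miR-29a, NC-miR day 4, NC-miR day 2) had overlapping libraries at every step. Not all groups overlapped, since both NC-miR day 2 libraries lay under both miR-29a and both normal libraries, beside 23.5% and 30.5% of all features. They also lay under both miR-29b libraries, for which the share over all features is not given here. The pooled SD within groups was 0.60 for Uhrf1, larger than that of 97.6% of the tested features, and 0.26 for Dnmt1, with a median of 0.18 over all features.

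The de novo methyltransferase Dnmt3a (chromosome 12, 3806007 to 3914443) had values of -0.02 and 0.37 with miR-29a, 0.08 and -0.27 with miR-29b, -0.11 and -0.02 with NC-miR on day 4, -0.41 and 0.15 with NC-miR on day 2, and 0.20 and 0.11 in normal mice. The miR-29a and normal groups had the highest means (0.17 and 0.16) and overlapped. Both miR-29b libraries lay under both normal libraries, which held for 25.3% of all features, and so did both NC-miR day 4 libraries, which held for 27.8%. The within-group SD was 0.25.

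Among the dioxygenases, Tet2 (chromosome 3, 133463679 to 133545139) had values of 0.02 and 0.04 with miR-29a, 0.14 and -0.37 with miR-29b, 0.24 and 0.05 with NC-miR on day 4, 0.29 and 0.02 with NC-miR on day 2, and -0.35 and -0.05 in normal mice. Each library of the miR-29a and both NC-miR groups was above both normal libraries, and miR-29b overlapped with normal. Both libraries lay above both normal ones for 21% of all features with miR-29a, 20.4% with NC-miR on day 4 and 18.6% with NC-miR on day 2. Tet3 (chromosome 6, 83362373 to 83459084) had values of 0.12 and 0.22 with miR-29a, 0.16 and -0.14 with miR-29b, 0.00 and 0.08 with NC-miR on day 4, -0.28 and 0.06 with NC-miR on day 2, and -0.16 and -0.15 in normal mice. All 6 day 4 libraries of DSS mice were above both normal libraries, which held for 7.39% of all features, and miR-29b replicate 2 (-0.143) was only just above normal replicate 2 (-0.149). Tet3 had the smallest within-group SD of the 6 genes (0.15, against 0.21 for Tet2).

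For Tdg the distance above the floor can be given. Both miR-29a libraries were at the floor, and the miR-29b libraries lay 2.5-fold and 1.19-fold above it. NC-miR day 4 replicate 2 lay 1.73-fold and NC-miR day 2 replicate 1 lay 1.14-fold above it, with the other library of each group at the floor, and the normal libraries lay 2.42-fold and 1.35-fold above it. Only the miR-29b and normal groups had both libraries above the floor. The within-group SD was 0.49, larger than that of 95.1% of the tested features. Tdg is uncertain for a second reason, since reads can be shared with processed pseudogene copies. One of them, Gm9855 (chromosome 10, 42054113 to 42055306), is 99.2% identical to the Tdg transcript over 1194 bases, and 76.5% of its 50-base windows occur unchanged in it. In the other direction, 25.4% of the windows of the Tdg transcript (3502 bases) occur in Gm9855. Another copy, Tdg-ps (chromosome 15, 82516311 to 82519278), is 98.7% identical over 2968 bases and holds 47.4% of the Tdg windows. The row for Gm9855 lay above the floor in all 10 libraries. Its values were 0.06 and -0.11 with miR-29a, -0.15 and 0.30 with miR-29b, and 0.14 and 0.42 with NC-miR on day 4. They were -0.21 and -0.01 with NC-miR on day 2, and -0.16 and -0.30 in normal mice. Its group mean was lowest in normal mice (-0.23), where that of Tdg was highest (0.44), each gene on its own baseline. How reads were divided between the copies is not given in the sources used here.

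The comparison the injections were made for is miR-29 against NC-miR on day 4. None of the 6 genes passed the test used, limma with Benjamini-Hochberg adjustment over the 13051 features. With miR-29a, 0 of 6 genes were called, beside a background of 0% of all features called, and 0 of 6 had an unadjusted p under 0.05, beside 7.63% of all features. With miR-29b the background was likewise 0%, and again 0 of 6 genes had an unadjusted p under 0.05, beside 12.5% of all features. For miR-29a and miR-29b averaged, the counts were also 0 of 6 and 0 of 6, beside 0.00766% of features called and 10.8% with an unadjusted p under 0.05. All 3 comparisons share the NC-miR day 4 libraries.

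Dnmt3a, with 5 seed matches, averaged 0.17 ± 0.28 with miR-29a and -0.07 ± 0.07 with NC-miR (SD, n = 2 each), a difference of 0.24 ± 0.22 (limma adjusted p = 0.808, with the standard error of limma after ±, as for every difference). The 95% interval of limma ran from -0.27 to 0.75. With miR-29b the difference in Dnmt3a was -0.03 ± 0.22 (limma adjusted p = 0.973), with an interval from -0.53 to 0.48. These intervals leave room for lower as well as higher Dnmt3a with either miRNA. Tet2, also with 5 matches, differed by -0.11 ± 0.20 with miR-29a (interval -0.57 to 0.34, limma adjusted p = 0.903) and by -0.26 ± 0.20 with miR-29b (interval -0.72 to 0.20, limma adjusted p = 0.588). Both miR-29a libraries lay under both NC-miR libraries, which held for 19.3% of all features, and the miR-29b libraries overlapped with them. Tet3, with 8 matches, differed by 0.13 ± 0.16 with miR-29a (interval -0.24 to 0.49, limma adjusted p = 0.861), with both libraries above those of NC-miR, which held for 22.4% of all features. With miR-29b the difference in Tet3 was -0.03 ± 0.16, with an interval from -0.40 to 0.34.

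The 2 genes without a seed match were not called either. Dnmt1 differed by -0.03 ± 0.23 with miR-29a and by 0.03 ± 0.23 with miR-29b (limma adjusted p = 0.984 and 0.971). Uhrf1 differed by 0.15 ± 0.48 with miR-29a and by 0.30 ± 0.48 with miR-29b, with intervals from -0.96 to 1.26 and from -0.80 to 1.41. The sign of the Uhrf1 difference rested on which NC-miR library was kept. Without NC-miR day 4 replicate 1, the library with high squamous markers, it was -0.59 with miR-29a and -0.43 with miR-29b, and without replicate 2 it was 0.89 and 1.04. Tdg, with 3 matches, was at the floor with miR-29a and differed from NC-miR by -0.38 ± 0.40, and by 0.40 ± 0.40 with miR-29b. Without NC-miR day 4 replicate 2, the only library of that group above the floor, the miR-29a group and the remaining NC-miR library were both at the floor.

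**Figure D3:**
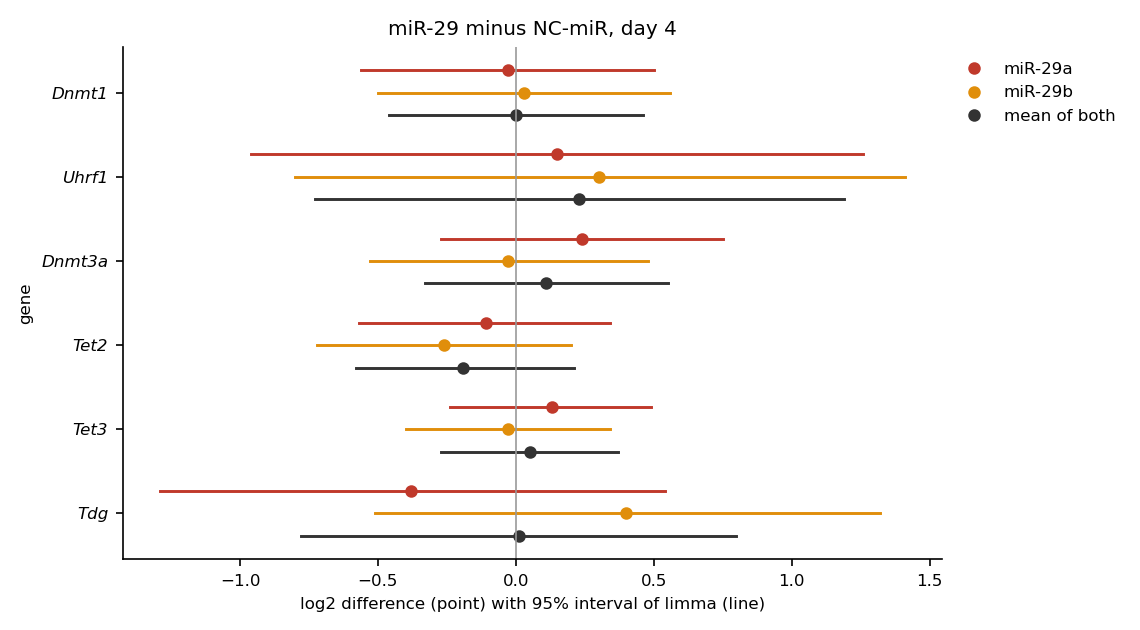
Log2 differences of the 6 tested genes between each miR-29 group, or the mean of both, and NC-miR on day 4 (points), with 95% intervals of limma (lines). Every interval includes 0, and the intervals of Uhrf1 and Tdg are the widest.

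Over the whole table, 1763 tested features with at least 1 seed match had a median difference of -0.018 with miR-29a and -0.055 with miR-29b from NC-miR on day 4, against 0.022 and 0.033 for 9816 features with no match. With 3 or more matches (52 features) the medians were -0.012 and -0.037, and with a match followed by adenosine (355 features) they were -0.002 and -0.074. Against normal mice, the medians with miR-29b were -0.061 with a match, -0.084 with a match followed by adenosine and -0.122 with 3 or more, against -0.02 without a match. With miR-29a they were, in the same order, -0.013, -0.008 and -0.054, against -0.019 without a match. Where no miR-29 was given, they were 0.004, 0.026 and -0.067 in NC-miR day 4 against normal, against -0.038 without a match. In NC-miR day 2 against normal they were -0.058, -0.06 and -0.065, against -0.058 without a match. The class with 3 or more matches (52 features) had the lowest median against normal in each group, though in NC-miR day 2 all lay between -0.065 and -0.058. The 2 larger classes with a match lay above the class without a match in NC-miR day 4 and with miR-29a, and below it with miR-29b. A part of miR-29 in these orders was not tested. These comparisons share the normal or the NC-miR day 4 libraries. These medians are a description, with no test.

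miR-29a was also set against miR-29b directly. None of the 6 genes was called by limma (0%, the share over all features, and 0 of 6 with an unadjusted p under 0.05, beside 7.43% of all features). The largest difference was that of Tdg, -0.78 ± 0.40 (limma adjusted p = 0.681, interval -1.70 to 0.13). Both miR-29a libraries were at the floor and both miR-29b libraries above it, so its size is limited by the floor. Tdg entered the test through the miR-29b and normal groups, where it was high, so this p-value is no support for a difference. The Tdg difference was -0.25 without miR-29b replicate 1 and -1.32 without replicate 2. Both miR-29a libraries lay under both miR-29b libraries for 19.7% of all features. For the other 5 genes the differences were between -0.15 (Uhrf1) and 0.26 (Dnmt3a, interval -0.24 to 0.77).

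Against normal mice, the groups given DSS and injections had 0 of 6 genes called by limma in each of 4 comparisons, and 0 of 6 with an unadjusted p under 0.05. The share of all features called was 0.421% with miR-29a, 0.49% with miR-29b, 0.383% with NC-miR on day 4 and 1.22% with NC-miR on day 2. These shares moved with single libraries: without normal replicate 2, the features called were 8 in place of 55 with miR-29a, 5 in place of 64 with miR-29b, 6 in place of 50 with NC-miR on day 4 and 16 in place of 159 with NC-miR on day 2. An unadjusted p under 0.05 was reached by 11% of all features with miR-29a, 15.3% with miR-29b, 15.2% with NC-miR on day 4 and 15.2% with NC-miR on day 2. The 4 comparisons share the normal libraries, so like signs among them are not separate observations. An F test of limma for any difference among the 5 groups gave adjusted p between 0.491 (Tdg) and 0.717 (Dnmt3a) for the 6 genes, with 0 called and 0 with an unadjusted p under 0.05, beside 0.375% of all features called and 14.4% with an unadjusted p under 0.05.

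The group means of Uhrf1 and Dnmt1 were lowest with NC-miR on day 2. Uhrf1 averaged -0.93 with NC-miR and 0.00 in normal mice, a difference of -0.93 ± 0.48 (SE, n = 2 each, unadjusted p = 0.0897 and limma adjusted p = 0.412, interval -2.04 to 0.18). Dnmt1 differed by -0.40 ± 0.23 (limma adjusted p = 0.461, interval -0.93 to 0.13). Both NC-miR day 2 libraries lay under both normal libraries for Uhrf1, Dnmt1 and Tdg, which held for 30.5% of all features. Between NC-miR day 4 and NC-miR day 2 the differences were 0.67 ± 0.48 for Uhrf1 and 0.33 ± 0.23 for Dnmt1 (limma adjusted p = 0.866 and 0.860). Without NC-miR day 4 replicate 2 they were -0.07 for Uhrf1 and 0.11 for Dnmt1, and without replicate 1 they were 1.41 and 0.56. No member was called there, beside 0.0153% of features, and 0 of 6 had an unadjusted p under 0.05, beside 6.41%. On day 4, Uhrf1 differed from normal by -0.11 ± 0.48 with miR-29a, 0.04 ± 0.48 with miR-29b and -0.26 ± 0.48 with NC-miR.

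Tet2 and Tet3 had only positive differences from normal, none of which passed. Tet2 differed by 0.23 ± 0.20 with miR-29a, 0.08 ± 0.20 with miR-29b, 0.34 ± 0.20 with NC-miR on day 4 and 0.35 ± 0.20 with NC-miR on day 2, with limma adjusted p between 0.442 and 0.882. Tet3 differed by 0.32 ± 0.16 with miR-29a (unadjusted p = 0.0775, limma adjusted p = 0.522, interval -0.04 to 0.69), 0.17 ± 0.16 with miR-29b, 0.20 ± 0.16 with NC-miR on day 4 and 0.05 ± 0.16 with NC-miR on day 2. Both libraries of a group lay above both normal ones for Tet3 with miR-29a, miR-29b and NC-miR on day 4, beside 21%, 21.3% and 20.4% of all features in the 3 comparisons. The positive sign rested on 1 library in a pair of these differences: Tet2 with miR-29b was -0.17 without miR-29b replicate 1 and -0.06 without normal replicate 1, and Tet3 with NC-miR on day 2 was -0.12 without NC-miR day 2 replicate 2. Tdg entered the test through the normal and miR-29b groups, where it was high, so its p-values against normal are no support for a difference. Tdg differed by -0.87 ± 0.40 with miR-29a (unadjusted p = 0.0592, limma adjusted p = 0.48, interval -1.79 to 0.04). Its size is limited by the floor, at which both miR-29a libraries lay. Both lay under both normal libraries, which held for 26% of all features. That difference was -0.46 without normal replicate 1 and -1.29 without normal replicate 2. Tdg differed from normal by -0.09 ± 0.40 with miR-29b, -0.49 ± 0.40 with NC-miR on day 4 and -0.82 ± 0.40 with NC-miR on day 2 (limma adjusted p = 0.944, 0.594 and 0.382). Dnmt3a differed by 0.02 ± 0.22 with miR-29a, -0.25 ± 0.22 with miR-29b, -0.22 ± 0.22 with NC-miR on day 4 and -0.28 ± 0.22 with NC-miR on day 2.

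**Figure D4:**
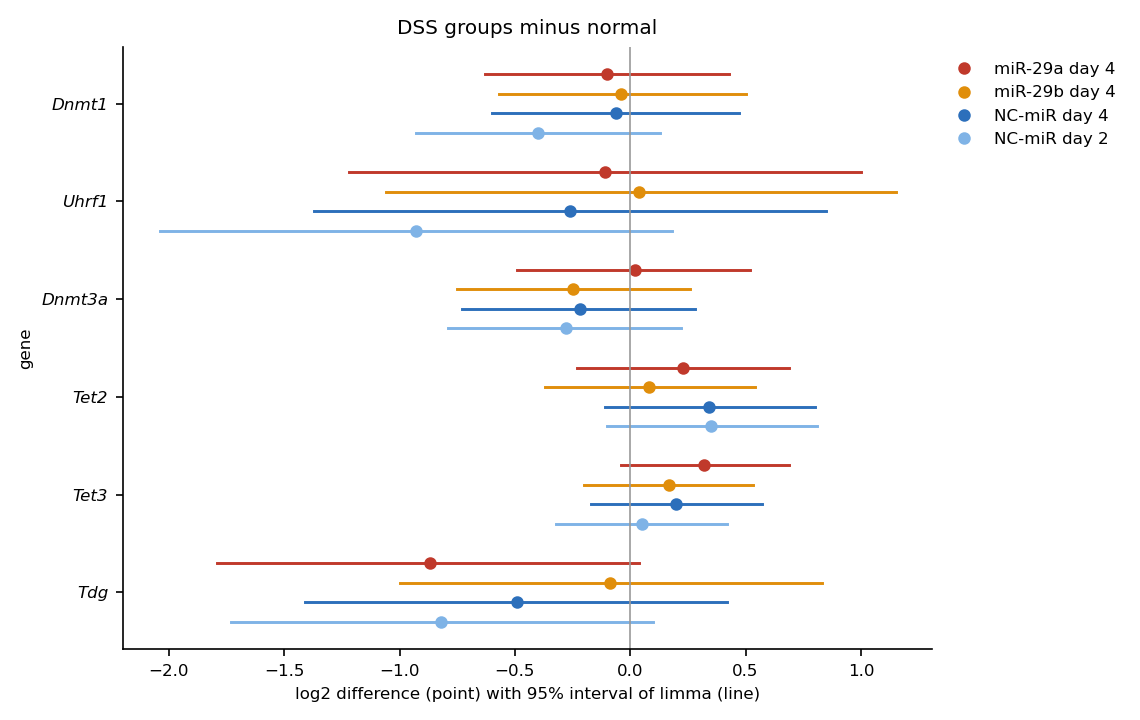
Log2 differences of the 6 tested genes between each DSS group and normal mice (points), with 95% intervals of limma (lines). Every interval includes 0, and those of Tdg and Uhrf1 extend furthest below it.

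Across the 10 libraries, the 2 maintenance genes went together. The Pearson correlation of Dnmt1 with Uhrf1 was 0.91, and in 4 of 5 groups the replicate with more Dnmt1 also had more Uhrf1. Tet2 ran the other way, with -0.71 to Dnmt1 and -0.74 to Uhrf1, and Dnmt3a with Tet3 reached 0.59. Between replicates, Tet2 still went the same way as Dnmt1 in 2 of 5 groups and as Uhrf1 in 1 of 5. For Dnmt3a with Tet3 it was 4 of 5. These are descriptions over 10 libraries that share groups, tissue makeup and processing. Among 11284 features searched, those most like Uhrf1 were Mcm4 (0.951), Mcm3 (0.951) and Mcm2 (0.942), subunits of the helicase that opens DNA for replication. Mcm3 had values of 0.29 and -0.24 with miR-29a, -0.62 and 0.47 with miR-29b, -0.89 and 0.38 with NC-miR on day 4, -0.62 and -0.59 with NC-miR on day 2, and 0.08 and 0.24 in normal mice. As for Uhrf1, the replicates of miR-29b and of NC-miR on day 4 lay far apart. The nearest to Dnmt1 were Nt5dc2 (0.95), Sumo3 (0.916) and Celf3 (0.915), to Dnmt3a Mfsd9 (0.945), Aktip (0.935) and Usp46 (0.911), to Tet2 Klhdc7a (0.964), Arhgef38 (0.959) and Chmp4c (0.948), and to Tet3 Slc6a6 (0.951), Entpd5 (0.941) and Acvr1b (0.926).

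A list of 30 replication and mitosis genes, of which 29 were tested, was set beside the maintenance pair. Its mean relative to normal was -0.37 and -0.27 with miR-29a, -0.94 and -0.07 with miR-29b, -0.46 and 0.26 with NC-miR on day 4, -0.60 and -0.15 with NC-miR on day 2, and 0.10 and -0.10 in normal mice. The list was lowest in miR-29b replicate 1 (lowest library for 17 of 29 genes) and highest in NC-miR day 4 replicate 2 (highest for 16 of 29). Its genes did not all move together. In miR-29b replicate 1, the mitosis gene Bub1 was at -1.63, and Mcm2, Mcm3 and Mcm4 were at -0.30, -0.62 and -0.17. With NC-miR on day 2, Bub1 was at -0.23 and 0.42, against 0.56 and -0.16 in normal mice. Mcm3 was at -0.62 and -0.59 in those NC-miR libraries. The correlation of the list mean over the libraries was 0.65 with Uhrf1, 0.73 with Dnmt1, -0.61 with Tet2, 0.21 with Dnmt3a and -0.18 with Tet3. This is a description (the list includes Mcm2, Mcm3 and Mcm4). Between replicates, Uhrf1 went the same way as the list in 3 of 5 groups, Dnmt1 in 4 and Tet2 in 1. Dnmt3a did so in 4 and Tet3 in 3. With miR-29b against NC-miR on day 4, 0 of 29 were called by limma and 5 had an unadjusted p under 0.05, beside 12.5% of all features, and the median was -0.27 with 21 of 29 below 0, beside a median of 0.02 over all features. Bub1, a checkpoint kinase of mitosis, differed there by -1.54 ± 0.38 (limma adjusted p = 0.335). With NC-miR on day 2 against normal the median was -0.30 with 25 of 29 below 0, beside a median of -0.06 over all features and 41.2% of them above 0, and E2f2, a transcription factor of the cell cycle, differed by -1.88 ± 0.41 (limma adjusted p = 0.0839). Low values were not particular to that group. Against normal, 26 of 29 were below 0 with miR-29a (median -0.29) and 26 with miR-29b (median -0.40). With NC-miR on day 4 it was 17 of 29 (median -0.09). Over all features the medians were -0.02, -0.03 and -0.03, with 46.1%, 45.3% and 44.6% above 0.

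**Figure D5:**
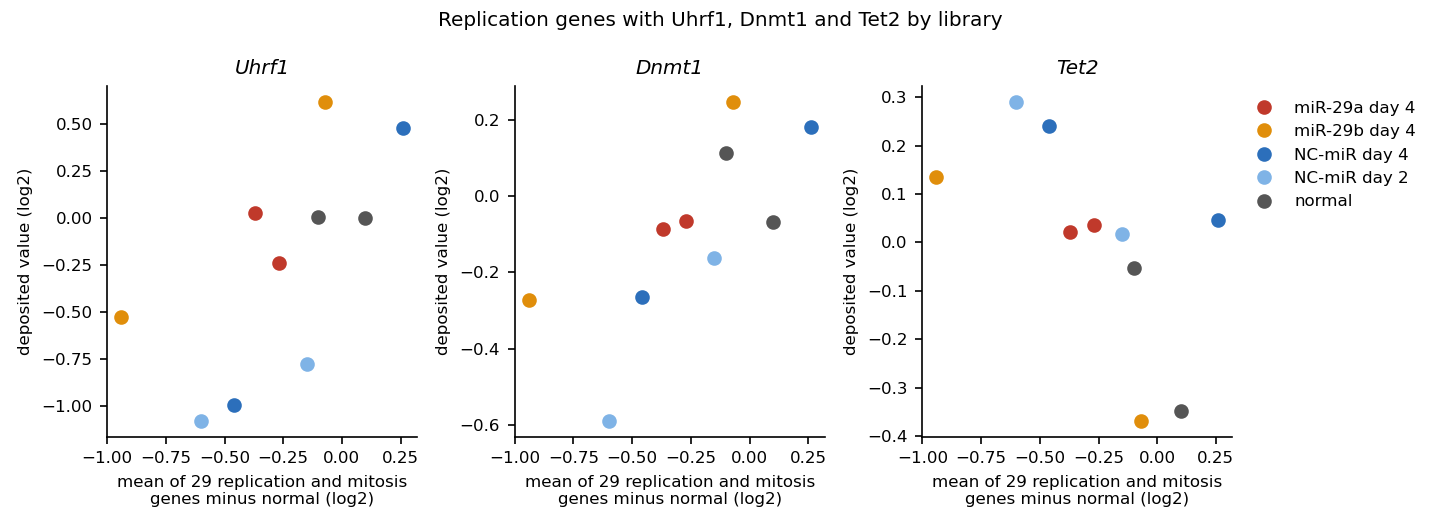
Deposited log2 values of Uhrf1, Dnmt1 and Tet2 (vertical axes) against the mean of 29 replication and mitosis genes relative to normal (horizontal axis, log2), with 1 point per library coloured by group. Uhrf1 and Dnmt1 are highest in miR-29b replicate 2 and NC-miR day 4 replicate 2, and Tet2 is lowest in miR-29b replicate 2 and normal replicate 1.

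The other genes of the pathway were followed through 5 lists, and limma called none of their tested genes in any of the 9 comparisons. Among the cofactors of the methyltransferases (9 of 11 tested; Dnmt3l, the catalytically inactive partner of Dnmt3a in germ cells, was at the floor throughout) 0 were called in any comparison. With NC-miR on day 2 against normal, 1 had an unadjusted p under 0.05, beside 15.2% of all features. This was Cdca7, a partner of the remodeller Hells, at -0.78 ± 0.31 (limma adjusted p = 0.287). Uhrf2, a paralog of Uhrf1, differed from normal by -0.38 ± 0.13 with miR-29b (limma adjusted p = 0.226). The median over the 9 genes was -0.10 with miR-29a and -0.21 with miR-29b against NC-miR on day 4, beside 0.02 over all features in both.

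Readers of methylated DNA (8 of 8 tested) had 0 calls and 2 genes with an unadjusted p under 0.05 with miR-29b against NC-miR on day 4, beside 12.5% of all features. Zbtb33, also called Kaiso, differed there by -0.49 ± 0.15 (limma adjusted p = 0.339). In that comparison 7 of 8 readers were below 0, with a median of -0.12, beside 53.0% of all features above 0 and a median of 0.02. With miR-29a against NC-miR on day 4, 6 of 8 readers were below 0, with a median of -0.22. The values over all features were 53.4% above 0 and a median of 0.02. There 0 readers had an unadjusted p under 0.05, beside 7.63% of all features. Both comparisons share the NC-miR day 4 libraries, in which 6 of 8 readers were above normal (median 0.15), beside 44.6% of all features. Against normal, 6 of 8 were above 0 with miR-29a (median 0.04) and 3 of 8 with miR-29b (median -0.19). The shares of all features were 46.1% and 45.3%. Mbd4, a glycosylase with a methyl-binding domain, differed from normal by -0.59 ± 0.21 with NC-miR on day 2 (limma adjusted p = 0.242).

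Of the base excision repair and deamination genes, 14 of 16 were tested, and Neil2, a glycosylase, was at the floor throughout. Neil3, a glycosylase of dividing cells, differed by -1.43 ± 0.51 with miR-29b against NC-miR on day 4 (limma adjusted p = 0.37) and by -1.69 ± 0.51 against normal (limma adjusted p = 0.187). Gadd45g, a growth arrest and DNA damage response gene, differed the other way, by 1.04 ± 0.44 with miR-29b against NC-miR on day 4 (unadjusted p = 0.0459, limma adjusted p = 0.394). Ung, which removes uracil, differed by 0.83 ± 0.39 there (limma adjusted p = 0.422), and from normal by -0.84 ± 0.39 with NC-miR on day 2 (limma adjusted p = 0.358). Apobec1, a cytidine deaminase that edits RNA, differed from normal by 0.56 ± 0.23 with NC-miR on day 4 (limma adjusted p = 0.305). The median over the 14 genes was 0.07 with miR-29b and 0.02 with miR-29a against NC-miR on day 4, beside 0.02 over all features in both. Of the 14, 2 had an unadjusted p under 0.05 with miR-29b, beside 12.5% of all features, and 0 with miR-29a, beside 7.63%.

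The TET partners and the enzymes that supply or clear 2-oxoglutarate and its relatives (7 of 8 tested) had medians of 0.08 with miR-29a and -0.07 with miR-29b against NC-miR on day 4, with 0 calls and 0 genes at an unadjusted p under 0.05 in either, beside 7.63% and 12.5% of all features. Idh2, which makes 2-oxoglutarate in mitochondria, differed there by 0.31 ± 0.18 with miR-29a and 0.30 ± 0.18 with miR-29b (limma adjusted p = 0.701 and 0.489). Ogt, a glycosyltransferase that binds TET proteins, differed from normal by -0.45 ± 0.15 with miR-29b (limma adjusted p = 0.209). The genes of the S-adenosylmethionine and folate cycles, which supply the methyl group (13 of 16 tested), had medians of 0.19 with miR-29a and 0.05 with miR-29b against NC-miR on day 4, with 2 and 1 genes at an unadjusted p under 0.05, beside the same shares. Nnmt, which uses S-adenosylmethionine to methylate nicotinamide, differed from normal by 0.58 ± 0.24 with miR-29a and 0.63 ± 0.24 with miR-29b (limma adjusted p = 0.426 and 0.267). Mat2a, which makes S-adenosylmethionine outside the liver, differed from normal by -0.41 ± 0.13 with NC-miR on day 2 (limma adjusted p = 0.188). Mat1a, Bhmt and Gnmt, genes of the liver form of the cycle, were at the floor in all 10 libraries.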

How the data were processed

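Per the labels' protocols, total RNA of the colorectum was made into stranded mRNA libraries. The submitters' processing notes name mm10, Cuffnorm 2.2.1, SAMtools 0.1.19, Bowtie2 2.2.3 and TopHat2 2.0.13 without settings. Per the file headers the authors' column is FPKM, yet the values deposited are log2 values around a separate baseline for every gene. Base 2 was taken because the distances above the floor, as powers of 2, had 6 significant digits in 99.2% of 6149 values. These values came from 9 libraries, without normal replicate 1, so that library was not covered by this check. Libraries sharing a feature's lowest value within 2e-05, where at least 2 did, were counted as at the floor. This floor was inferred from the values and its height is not given.

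A model of the 5 group means was fitted with limma 3.58.1 (R 4.3.3) over all 10 libraries, without further normalization and with 5 residual and 3.26 prior degrees of freedom. Tests were 2-sided with Benjamini-Hochberg adjustment over 13051 features and calls under 0.05, and the script was tested on simulated data. The alternatives were a fit to the compared groups, no filter, median centring, quantile normalization, the robust option, the replicate block and leaving out each library. Replicate numbers did not pair the libraries: 1 of 10 pairs of groups had deviations correlated over 0.1 (range -0.24 to 0.11). Pathway genes named were the calls or the 3 of smallest p per list and comparison, of which some are given here, and the genes most like a member were the 3 with the highest correlation. The members and lists were chosen with earlier results of these data known. Single values of 4 further pathway genes are not reported here.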

Additional observations from a re-analysis of the deposited data

How the results depend on the processing

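No member was called under any of the alternatives: the number of the 6 tested genes called was 0 in each of the 9 comparisons and the F test with the replicate block, and 0 to 0 over the fits that left out 1 library each. Of 864 recomputed differences, 0 became a call, and 44, in 28 of the 54 differences, changed sign without being called on either side. The count over all features moved more. When 1 library was left out, it was 8 to 42 in place of 55 for miR-29a against normal, 5 to 60 in place of 64 for miR-29b, 6 to 82 in place of 50 for NC-miR on day 4 and 16 to 273 in place of 159 for NC-miR on day 2. With only the libraries compared in the fit it was 24, 13, 20 and 26, with no filter on low values 14, 29, 22 and 28, with quantile normalization 30 and 23 for the miR-29 groups, and with the replicate block 35 for miR-29b and 30 for NC-miR on day 4. The count of the F test moved from 49 to 15 with no filter, 91 with quantile normalization and 28 with the replicate block, and to between 6 and 163 when 1 library was left out. For NC-miR day 4 against NC-miR day 2 the count moved from 2 to between 0 and 94 when 1 library was left out. With 2 libraries a group and depth unknown, the intervals set the limit of what these data can show, and a gene at the floor shows no fall.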
